A study of Mus musculus with 36 samples.

Results

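The mitogen-activated protein kinase (MAPK) phosphatases examined here were 10 genes of the dual-specificity phosphatase (DUSP) family, taken by gene name from a gastrocnemius count table of 46893 features: Dusp1, Dusp3, Dusp4, Dusp6, Dusp7, Dusp8, Dusp10, Dusp16, Dusp18 and Dusp26. All 10 names were found once. The muscles came from 36 wild-type (WT) male C57BL/6 mice in 6 groups of 6, which entered the study at 3 to 4 weeks of age and were followed for 12 weeks. Sedentary mice ate either the AIN93G diet (NFD-C) or a high-fat diet (HFD-C). The other 4 groups ate the high-fat diet and had a running wheel: HFD-U ran freely, at 8.3 km/day on average, and braked wheels held HFD-75% to 6.3, HFD-50% to 4.2 and HFD-25% to 2.1 km/day. No group ran on the normal diet, so diet and running can be compared separately only in sedentary mice and in high-fat-fed mice. Each library was made from poly(A)-selected RNA of the bulk muscle of 1 mouse.

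MAP kinases such as ERK, JNK and p38 are switched on when a threonine and a tyrosine in their activation loop are both phosphorylated. MAPK phosphatases remove both phosphates, and several of them are themselves transcribed in response to MAPK activity, which makes them feedback brakes. In skeletal muscle ERK, JNK and p38 respond to contraction, and MKP-1 (Dusp1) and MKP-5 (Dusp10) have been studied there for their parts in metabolism and regeneration. In bulk muscle, fewer cells of a type and less RNA per cell cannot be told apart.

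Dusp10 was the member whose level differed most clearly among the groups. Its mean was 20.5 CPM (read counts relative to the scaled total of the library) in HFD-50% mice against 40.5 CPM in sedentary HFD-C mice and 45.3 CPM in HFD-U mice. Dusp1 was also lowest in HFD-50%, but its difference among groups did not pass the adjusted test. Dusp6 and Dusp16 passed no test in the 10 comparisons or their alternatives, and Dusp8 and Dusp18 passed only the unadjusted limit in 1 comparison each, under alternative fits given with them.

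The stretch upstream of the gene start is printed for the 4 members whose unadjusted p was 0.05 or less in the test of any difference among groups (Dusp1, Dusp3, Dusp7 and Dusp10), and for Dusp8, which holds the same motif as Dusp1. Each is the 250 bases before the annotated start in RefSeq, build GRCm38.p6, 5′ to 3′ on the gene's strand: Dusp1 at chr17:26508473-26508722 (minus strand), Dusp3 at chr11:101984792-101985041 (minus), Dusp7 at chr9:106368382-106368631 (plus), Dusp8 at chr7:142095285-142095534 (minus) and Dusp10 at chr1:184034131-184034380 (plus). Capitals mark motif matches, and matches that touch or overlap run together.
Dusp1: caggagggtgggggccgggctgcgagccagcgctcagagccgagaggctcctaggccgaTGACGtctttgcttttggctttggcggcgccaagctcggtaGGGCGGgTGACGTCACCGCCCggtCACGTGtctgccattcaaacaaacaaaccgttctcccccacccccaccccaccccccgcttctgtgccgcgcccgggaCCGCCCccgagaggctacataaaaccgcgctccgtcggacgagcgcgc
Dusp3: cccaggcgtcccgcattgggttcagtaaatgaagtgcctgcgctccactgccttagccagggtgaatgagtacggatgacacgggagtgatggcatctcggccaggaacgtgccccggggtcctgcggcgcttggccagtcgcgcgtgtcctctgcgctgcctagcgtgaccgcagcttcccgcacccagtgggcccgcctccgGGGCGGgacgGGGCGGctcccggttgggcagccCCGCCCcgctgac
Dusp7: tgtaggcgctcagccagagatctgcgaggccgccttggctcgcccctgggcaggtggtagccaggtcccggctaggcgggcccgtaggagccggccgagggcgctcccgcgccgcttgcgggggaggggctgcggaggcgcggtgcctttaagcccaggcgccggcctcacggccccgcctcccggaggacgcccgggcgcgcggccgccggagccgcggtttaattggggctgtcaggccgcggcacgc
Dusp8: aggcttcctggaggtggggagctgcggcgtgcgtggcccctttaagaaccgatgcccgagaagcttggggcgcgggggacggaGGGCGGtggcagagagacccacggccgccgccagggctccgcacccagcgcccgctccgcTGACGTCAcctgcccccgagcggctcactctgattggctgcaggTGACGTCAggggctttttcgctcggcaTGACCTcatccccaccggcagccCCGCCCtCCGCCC
Dusp10: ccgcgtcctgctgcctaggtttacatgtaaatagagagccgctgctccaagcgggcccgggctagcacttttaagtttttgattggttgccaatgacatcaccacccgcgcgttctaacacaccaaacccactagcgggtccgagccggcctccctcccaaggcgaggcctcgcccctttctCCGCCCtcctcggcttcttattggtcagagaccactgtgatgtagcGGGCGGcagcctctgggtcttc

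RefSeq start sequences were matched for 8 of the 10 members, the exceptions being Dusp4 and Dusp26. On both strands, 7 motifs were searched: the cAMP response element (CRE, TGACGTCA), its shorter form TGACG, which also lies inside every full CRE, the AP-1 site TGANTCA, the E-box CACGTG, the nuclear receptor half-site AGGTCA, the GC box GGGCGG and the TATA box TATAAA. The full CRE was found once in Dusp1, starting 143 bases before the gene start, and at 2 places in Dusp8, 107 and 63 bases before it, while 1.55% of 32851 mouse promoters of the same length held one. The E-box was found in Dusp1 alone, 126 bases before the start, and in 6.02% of all promoters. GC boxes were found in 6 members (Dusp1, Dusp3, Dusp8, Dusp10, Dusp16 and Dusp18) and in 32.7% of all promoters. The AGGTCA half-site was found in Dusp8 and Dusp16 and in 14.0% of all promoters. TGACG was found in Dusp1, Dusp8 and Dusp16 (17.8% of all promoters), and neither the AP-1 site (6.75%) nor the TATA box (12.4%) was found in any of the 8. None of the 7 motifs was found in Dusp6 or Dusp7. These matches describe letters in a window, not bound sites, and the expression data below do not bear on them.

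Library totals ran from 13060090 to 27981702 counts. Fast muscle genes led as the tissue label says, with a median of 47635 CPM for Myh4, the fast IIB myosin, while the leukocyte gene Ptprc stayed at or below 3.28 CPM and the fat cell gene Adipoq had a median of 0.983 CPM. Counts on ribosomal RNA-linked features, a sign of how cleanly poly(A) RNA was selected, split the libraries: they took 2.01% to 3.80% of counts in all 6 NFD-C libraries and HFD-C replicates 1 to 4, and 0.404% to 1.02% in HFD-C replicates 5 and 6 and all 24 runners. This share therefore moved with sedentary against running. Each member called against HFD-C at the unadjusted limit is also given for libraries of like share. That leaves 2 HFD-C mice against runners and 4 against NFD-C mice. Genes outside the members and cell type markers are not given in this way, so their values against HFD-C carry this limit. Libraries of the same group differed by far more than sampling noise, with chi-square values of 14.7 to 181 per degree of freedom over 90 pairs, so none was a repeat of another.

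Per kilobase of gene model, which allows levels to be compared between genes, Dusp1 was the most abundant member, with a mean of 51.4 CPM per kb over the 36 mice. Dusp3 followed with 23.9 and Dusp26 with 15.5 CPM per kb. Dusp7 (8.12), Dusp8 (5.07), Dusp18 (4.46), Dusp10 (3.79), Dusp16 (3.65) and Dusp6 (2.81 CPM per kb) formed a middle range. Dusp4 was barely detected at 0.341 CPM per kb.

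**Figure D1:**
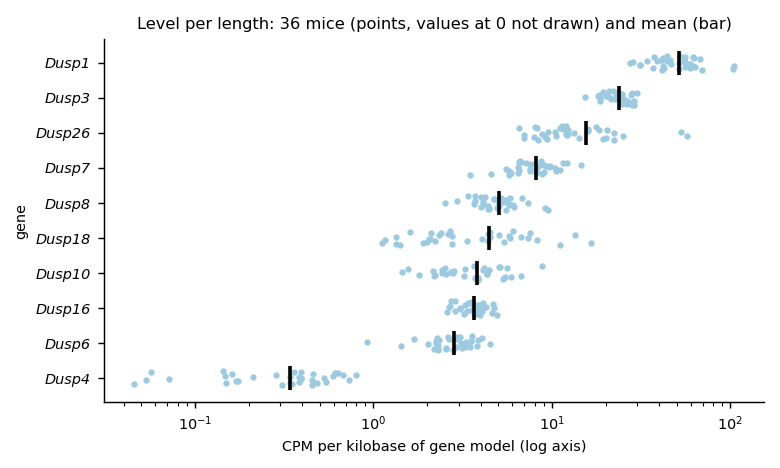
Level of each member in CPM per kilobase of gene model on a log axis, with 1 point for each of 36 mice and a bar at the mean. Dusp1 leads with a mean of 51.4, Dusp4 stands lowest with 0.341, and of the 9 members with enough counts to test, Dusp18 and Dusp26 spread most widely between mice (2 values of Dusp4 at 0 are not drawn).

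The members differed as much in how they varied between mice as in how abundant they were. Between the lowest and the highest of the 36 mice, Dusp16 varied 1.91-fold and Dusp3 1.95-fold, whereas Dusp10 varied 6.02-fold, Dusp26 8.75-fold and Dusp18 14.9-fold. Within groups, the standard deviation (SD) of log2 CPM of Dusp18 was 1.04, at the 98.4 percentile of the 12053 genes tested, and that of Dusp26 was 0.74, at the 94.4 percentile. That of Dusp3 was 0.20, at the 17.0 percentile. The means of the 6 groups spanned 1.12 on the log2 scale for Dusp10 and 0.20 for Dusp16, against a median span of 0.35 over all tested genes.

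**Figure D2:**
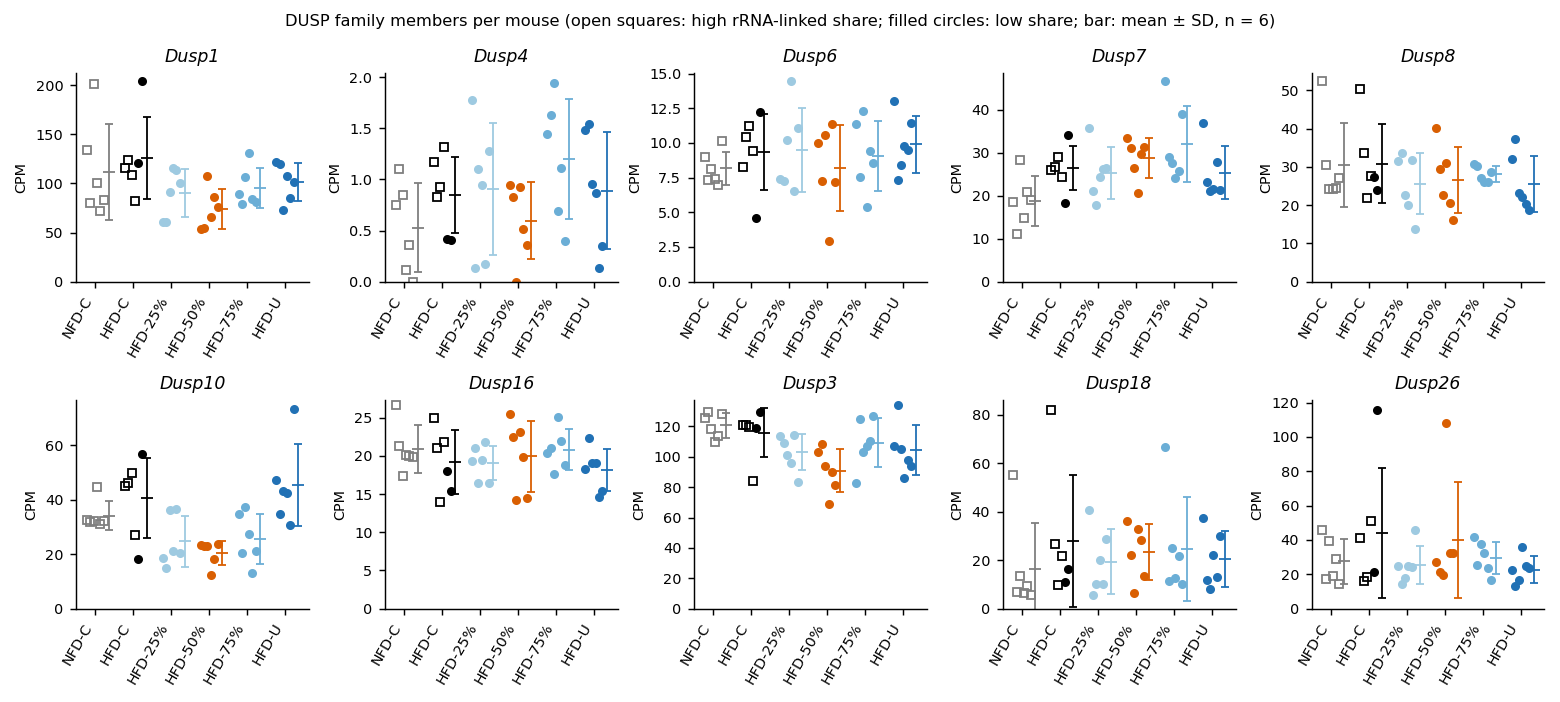
CPM of the 10 members in each mouse by group, with open squares for libraries of high ribosomal RNA-linked share, filled circles for low share, and a bar at mean ± SD (n = 6). The 6 HFD-50% mice sit between 12.2 and 23.6 CPM of Dusp10, all below the 6 HFD-U mice, and the mouse numbered 1 stands highest for Dusp18 in every group.

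Genes entered the tests when their counts averaged 25 or more (edgeR quasi-likelihood F-test, p-values adjusted by Benjamini-Hochberg over all genes tested). This left 9 of the 10 members. Dusp4, the nuclear phosphatase MKP-2, had a mean of only 14.7 counts, from 0 to 36 with 2 libraries at 0, and was not tested. Its group means ran from 0.528 ± 0.439 CPM in NFD-C to 1.2 ± 0.586 CPM in HFD-75% (SD, n = 6), and all groups overlapped.

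In the test of any difference among the 6 groups, 4 of 9 members had p of 0.05 or less before adjustment, where 12.2% of all 12053 genes did. These were Dusp10, Dusp7, Dusp3 and Dusp1. By adjusted p, 1 member was called (Dusp10), where 1.45% of all genes were. Dusp10 had an adjusted p of 0.0312, and over 43 alternative fits it ran from 0.000913 to 0.246 and stayed at or below 0.05 in 33. The call was lost when the ribosomal RNA-linked share entered the model (0.0906), among low-share libraries alone (0.246) and without the 6 mice numbered 1 (0.102). It was also lost when any 1 of HFD-C replicates 1, 2 or 3, HFD-50% replicates 4 or 5, or HFD-U replicates 1 or 6 was left out, with an adjusted p of at most 0.0619. Dusp7 (0.207), Dusp3 (0.301) and Dusp1 (0.360) did not pass, and the other 5 members had adjusted p-values from 0.612 to 0.955.

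Of the JNK- and p38-selective phosphatases, Dusp10 (MKP-5, chromosome 1, positions 183766575 to 183807833 on the plus strand in the coordinates of the count file) showed the widest span of group means. HFD-50% mice had 12.2 to 23.6 CPM with a median of 22.8. HFD-25% mice had 15.1 to 36.5 (median 20.8) and HFD-75% mice 13.2 to 37.3 (median 24.1). HFD-50% was the narrowest of the running groups, with 4 of its mice within 22.8 to 23.6 CPM, and the other restricted groups each held 2 or 3 mice above that range. HFD-C mice had 18.3 to 56.7 CPM (median 45.7) and HFD-U mice 30.9 to 73.5 (median 42.8). NFD-C mice had 31.0 to 44.8 (median 32.3), 5 of them within 31.0 to 32.4. By median, the sedentary and freely running groups stood above the 3 groups with braked wheels, and this division was not tested. Single mice overlapped across it. The lowest HFD-C mouse lay within the HFD-50% range, and the highest mice of HFD-25% and HFD-75% lay above the lowest HFD-U mouse.

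Against HFD-C, Dusp10 was lower in HFD-50% with a log2 fold change of -0.98 (SE 0.24, edgeR adjusted p = 0.148, exact two-sided permutation p = 0.0238), and all 6 HFD-50% mice lay below the HFD-C median. Across the 20 alternatives with an adjusted value, the adjusted p ran from 0.0159 with DESeq2, the study's tool, to 0.498 in libraries of like share, and 3 passed. In libraries of like share, with 2 HFD-C mice, the log2 fold change was -0.85. Those 2 mice were the lowest (18.3 CPM) and the highest (56.7 CPM) of HFD-C for Dusp10, and the lowest lay within the HFD-50% range. The log2 fold changes of Dusp10 were -0.71 (SE 0.27, exact permutation p = 0.0714, adjusted p = 0.622) in HFD-25% and -0.66 (SE 0.27, exact permutation p = 0.0866, adjusted p = 0.856) in HFD-75%. In libraries of like share they were -0.58 and -0.54, past no limit, with 2 HFD-C mice. In HFD-U it was 0.16 (SE 0.25, exact permutation p = 0.543), and 0.28 in libraries of like share. These 4 comparisons share the same 6 HFD-C mice.

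The comparison of HFD-50% with HFD-U uses no HFD-C library and only libraries of low share. The share still differed somewhat, at 0.559% to 1.02% in HFD-50% and 0.470% to 0.622% in HFD-U. Dusp10 was lower in HFD-50% with a log2 fold change of -1.15 (SE 0.21, adjusted p = 0.0731, edgeR), that is 20.5 ± 4.52 against 45.3 ± 15.0 CPM (SD, n = 6). The groups did not overlap, which held in the same direction for 0.380% of the 11851 genes tested. An exact two-sided permutation test gave p = 0.00216, the smallest that 6 against 6 mice allow. The adjusted p ran from 0.00022 with DESeq2 to 0.732 with the ribosomal RNA-linked share as a covariate over 19 alternatives, and 4 passed. With that covariate the log2 fold change of Dusp10 was -0.90. HFD-50% differed from HFD-25% by -0.27 (SE 0.23, exact permutation p = 0.409) and from HFD-75% by -0.32 (SE 0.23, exact permutation p = 0.353) on the log2 scale.

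Across the 24 runners, a linear and a quadratic term of distance gave Dusp10 an adjusted p of 0.0904 (edgeR), and 0 of 9 members passed by adjusted p, where 0.0419% of 11935 genes did. Before adjustment, 1 of 9 members passed a limit of 0.05 (Dusp10), where 8.49% of all genes did. DESeq2, which called 0.436% of all genes, gave Dusp10 an adjusted p of 0.00274, within a range over 30 alternatives from 0.00274 to 0.578. The other 8 members had unadjusted p-values of 0.0893 or more in this test. A change in one middle distance alone is a shape these 2 terms follow poorly, so the test mainly reads a slope or a bend over the 4 distances.

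**Figure D3:**
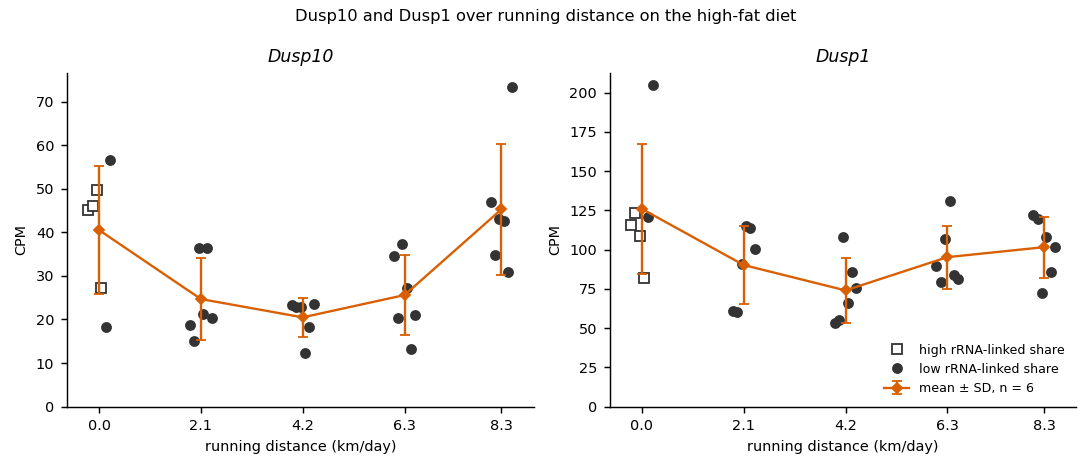
CPM of Dusp10 and Dusp1 against running distance in the 5 high-fat groups, with 1 symbol per mouse (open squares for high, filled circles for low ribosomal RNA-linked share) and diamonds at mean ± SD (n = 6). Dusp10 means go from 40.5 CPM at 0 km/day to 20.5 at 4.2 km/day and 45.3 at 8.3 km/day, and Dusp1 means from 126 to 74.0 and 102 CPM.

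Dusp8 and Dusp16 (MKP-7), the other members selective for JNK and p38, passed in no comparison by the tests above. Dusp8 means lay between 25.5 CPM in HFD-25% and 30.8 in HFD-C, and Dusp16 means between 18.2 CPM in HFD-U and 20.9 in NFD-C. Their log2 fold changes against HFD-C ran from -0.28 to -0.01 for Dusp8 and from -0.08 to 0.13 for Dusp16, with unadjusted p-values of 0.211 or more. With the mouse number as a block, Dusp8 passed the unadjusted limit in HFD-U against HFD-C (-0.26 on the log2 scale, adjusted p = 0.470). Over the 36 mice, Dusp8 and Dusp16 had the highest correlation of any of the 36 pairs of tested members (Pearson r 0.75, Spearman rho 0.73, and r 0.76 within groups). The points share library and depth, and this is a description.

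Dusp1 (MKP-1), the nuclear phosphatase that acts on p38, JNK and ERK and is quickly induced by stress and growth signals, lies on chromosome 17 (26724565 to 26727446, minus strand, coordinates of the count file). HFD-C mice had 82.1 to 205 CPM (median 118) and HFD-50% mice 53.2 to 108 CPM (median 70.9). HFD-25% (median 95.6), HFD-75% (86.6), HFD-U (105) and NFD-C (91.5 CPM) lay between. HFD-C replicate 6 stood far above the rest of its group, and 4 of 6 HFD-50% mice lay below every HFD-C mouse. The log2 fold change in HFD-50% against HFD-C was -0.76 (SE 0.22, edgeR adjusted p = 0.213, exact permutation p = 0.0108), and adjusted values over 20 alternatives ran from 0.0521 to 0.355. Without HFD-C replicate 6 it was -0.57 (adjusted p = 0.298), and in libraries of like share, which include that mouse, it was -1.12 (adjusted p = 0.345).

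In the other running groups Dusp1 differed less from HFD-C, by -0.48 in HFD-25% (SE 0.22, exact permutation p = 0.0909), -0.40 in HFD-75% (SE 0.19, p = 0.115) and -0.31 in HFD-U (SE 0.19, p = 0.212) on the log2 scale. The HFD-25% value was -0.28 without HFD-C replicate 6, no longer past the unadjusted limit. In libraries of like share, where that mouse is 1 of only 2 HFD-C mice, the values were -0.84, -0.77 and -0.68, all past the unadjusted limit with adjusted p-values of 0.323 to 0.489. Against HFD-U, HFD-50% differed by -0.45 (SE 0.18, edgeR adjusted p = 0.348, exact permutation p = 0.0476), with 5 of 6 HFD-50% mice below the HFD-U median. Without the mice numbered 1 it was -0.32, no longer past the unadjusted limit.

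Of the cytoplasmic ERK-selective phosphatases, Dusp6 (MKP-3) passed in no comparison, with group means from 8.18 to 9.91 CPM and unadjusted p-values of 0.305 or more in the comparisons of 2 groups. Dusp7, its close relative, was the only member past the unadjusted limit between the diets in sedentary mice. NFD-C mice had 11.1 to 28.2 CPM (median 18.8) and HFD-C mice 18.4 to 34.0 (median 26.3), and 5 of 6 NFD-C mice lay below the HFD-C median. The log2 fold change in NFD-C against HFD-C was -0.49 (SE 0.19, edgeR adjusted p = 1.0, exact permutation p = 0.0390), and it was -0.50 in libraries of like share, with 4 HFD-C mice. Dusp7 means in the running groups ran from 25.3 CPM in HFD-25% and HFD-U to 32.0 CPM in HFD-75%.

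The small atypical members lack the domain through which the classical phosphatases bind MAP kinases. Dusp3 (VHR), which acts on ERK and JNK, was even between mice. HFD-50% mice had 68.9 to 108 CPM (median 92.1), HFD-C mice 83.9 to 130 (median 120) and NFD-C mice 109 to 130 (median 122). All 6 HFD-50% mice lay below the HFD-C median, and HFD-C replicate 4 stood alone at the low end of its group. The log2 fold change in HFD-50% against HFD-C was -0.35 (SE 0.14, edgeR adjusted p = 0.377, exact permutation p = 0.0216), and -0.45 in libraries of like share.

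Both unadjusted calls of Dusp26 were lost without a single mouse each. HFD-C mice had 16.1 to 116 CPM (median 31.1), HFD-50% mice 19.3 to 108 (median 29.7) and HFD-U mice 13.2 to 35.8 (median 22.9). HFD-C replicate 6 and HFD-50% replicate 4 stood far above all other mice. The log2 fold change in HFD-U against HFD-C was -0.95 (SE 0.41, adjusted p = 0.883), but -0.38 (adjusted p = 0.944) without HFD-C replicate 6 and -1.59 (adjusted p = 0.293) in libraries of like share, where that mouse is 1 of 2. With the mouse number as a block it was -0.65 (adjusted p = 0.427), and an exact permutation test gave p = 0.219. In HFD-50% against HFD-U it was 0.83 (SE 0.39, adjusted p = 0.397), but 0.22 (adjusted p = 0.738) without HFD-50% replicate 4. It turned to -0.17 with the ribosomal RNA-linked share as a covariate and was 0.61 (adjusted p = 0.119) with the mouse number as a block.

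Dusp18, an atypical phosphatase reported at mitochondria, varied mostly between mice rather than between groups. Group medians ran from 8.09 CPM in NFD-C to 25.1 in HFD-50%, with mice from 5.50 to 81.7 CPM, and no comparison passed the unadjusted limit by the tests above. In NFD-C against HFD-C the log2 fold change of Dusp18 was -0.78 (adjusted p = 1.0). It passed the unadjusted limit with the mouse number as a block (-0.92, adjusted p = 0.688), with the ribosomal RNA-linked share as a covariate (-1.39), without the mice numbered 1 (-1.03) and without NFD-C replicate 1 alone (-1.74), and it was -0.07 without HFD-C replicate 1. Against HFD-C, the values of Dusp18 in all 4 running groups were below 0 and turned above 0 in libraries of like share, from 0.51 to 0.86, past no limit. The mouse numbered 1 was the highest for Dusp18 in all 6 groups, at 81.7 CPM in HFD-C and 54.9 CPM in NFD-C, and among the runners at 66.8 CPM in HFD-75%, 40.8 CPM in HFD-25%, 37.3 CPM in HFD-U and 36.3 CPM in HFD-50%, and 514 of 12053 genes (4.26%) showed the same. One of them was Myh2, the oxidative IIA myosin, which the mouse numbered 1 also led in every group. Over the 36 mice the log2 CPM of Dusp18 and Myh2 had r 0.79 (rho 0.82, r 0.80 within groups, and 0.76 without the 2 mice farthest from the median), and Dusp18 and Myh4 had r -0.51. Dusp3 stood the other way, with r 0.76 with Myh4 (0.82 within groups) and -0.46 with Myh2. Dusp26 had r -0.63 with Myh4. The myosin pairs were chosen after values were seen and carry no test, and the fibre make-up of each muscle was not measured apart from RNA.

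**Figure D4:**
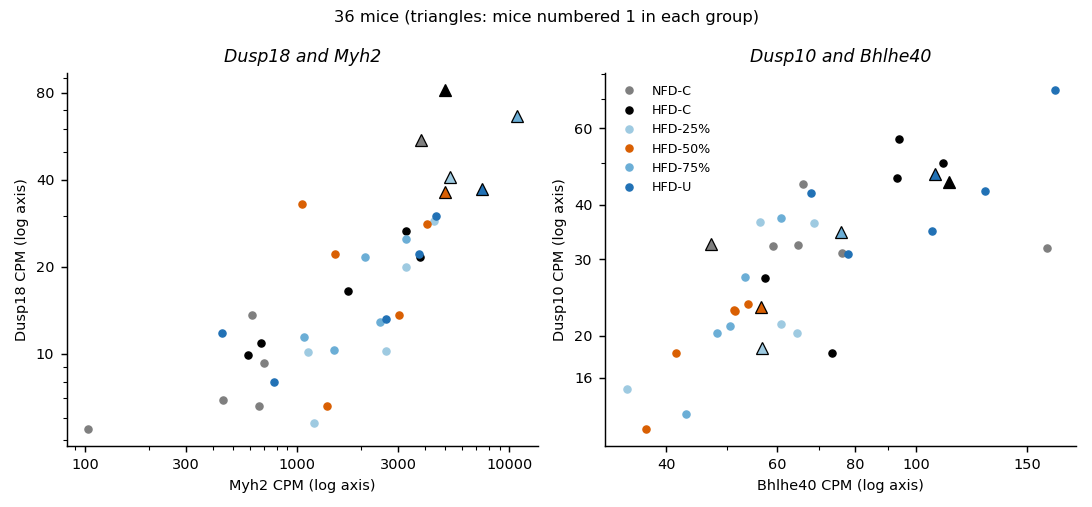
Left, Dusp18 against Myh2, and right, Dusp10 against Bhlhe40, in CPM on log axes, with 1 point per mouse coloured by group and triangles for the mice numbered 1. Both pairs are correlated over 36 mice (r 0.79 and 0.77), and the triangles hold the high end of the Dusp18 panel.

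Genes most like a member in log2 CPM over the 36 mice were listed for the 3 members with the smallest p in the 6-group test. For Dusp10 they were Bhlhe40 (r 0.77, rho 0.74), a clock-linked repressor, Nr1d1 (r 0.71, rho 0.67), which encodes the clock repressor REV-ERBalpha, and Relt (r 0.70, rho 0.68), a receptor of the tumour necrosis factor receptor family. Within groups these correlations were 0.55, 0.47 and 0.53. Bhlhe40 means were 48.6 CPM in HFD-50% and 109 in HFD-U, and those of Nr1d1 24.7 and 73.0 CPM. For Dusp3 they were Msrb3 (r 0.91), a methionine sulfoxide reductase, Naa50 (r 0.88), an N-terminal acetyltransferase, and Reep1 (r 0.88), an endoplasmic reticulum shaping protein. For Dusp7 they were Nsun4 (r 0.71), Gatd3a (r 0.69) and Coq5 (r 0.69), 3 genes of mitochondrial proteins. For Dusp18, chosen after its values were seen, the most alike were Esrrg (r 0.92), Acat1 (r 0.90) and Esrrb (r 0.90). Esrrg and Esrrb encode estrogen-related receptors and Acat1 a mitochondrial ketone body enzyme. All are the top of 12053 genes ranked over the same libraries, and no p is given.

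**Figure D5:**
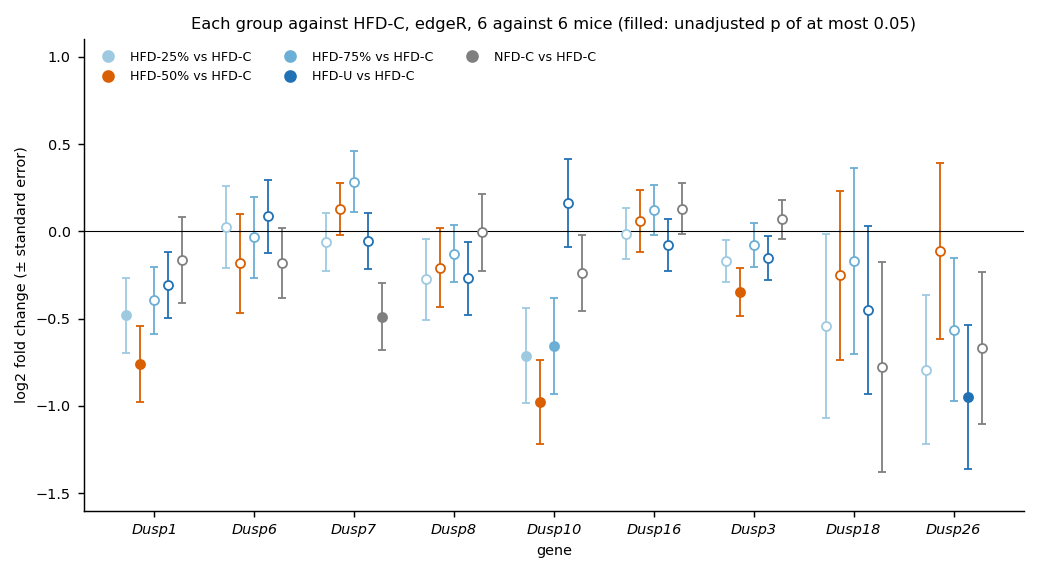
Log2 fold change ± standard error of the 9 tested members in each of 5 groups against HFD-C (6 against 6 mice, edgeR), with filled points where the unadjusted p is 0.05 or less. Dusp10 stands at -0.98 in HFD-50% and at 0.16 in HFD-U, while Dusp6, Dusp8, Dusp16 and Dusp18 have open points throughout.

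Members were counted by comparison at the unadjusted limit of 0.05 that the study used for its counts of changed genes. In HFD-25% against HFD-C, 2 of 9 members were called (Dusp1 and Dusp10, where 6.98% of all genes were called). In HFD-50% against HFD-C 3 were called (Dusp1, Dusp3 and Dusp10), all lower, where 10.7% of genes were called and 4.89% were lower. In HFD-75% it was 1 (Dusp10, 5.47% of genes), in HFD-U 1 (Dusp26, 5.46%) and in NFD-C 1 (Dusp7, 4.12%). In HFD-50% against HFD-U it was 3 (Dusp1 and Dusp10 lower, Dusp26 higher, 12.4% of genes), against HFD-25% 0 (2.69%) and against HFD-75% 0 (5.37%). By adjusted p, edgeR called 0 members in each of these 8 comparisons, where it called 0.00820% of genes in HFD-25% against HFD-C, 0.00844% in HFD-50% against HFD-U and 0.00% in the other 6. DESeq2 called 1 (Dusp10) in HFD-50% against HFD-C (1.32% of genes) and 1 (Dusp10) in HFD-50% against HFD-U (0.861%). The median log2 fold change of the 9 members against HFD-C was below 0 in every group, at -0.28 in HFD-25%, -0.21 in HFD-50%, -0.18 in NFD-C, -0.15 in HFD-U and -0.13 in HFD-75%, where that of all genes lay between -0.01 and 0.01, and these comparisons share the HFD-C mice. In libraries of like share most of this shift in the runners was gone. The middle value of the 9 members was then -0.036 in HFD-25% (Dusp7) and -0.014 in HFD-50% (Dusp6). In HFD-75% it was 0.13 (Dusp6), in HFD-U -0.0071 (Dusp8) and in NFD-C -0.20 (Dusp26).

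When the 6 groups were put in order of mean CPM for each tested member, 0 of 45 pairs of neighbours differed at p of at most 0.05 by an exact two-sided permutation test, and every adjusted p was 0.987. Neighbours were set by the same values and are the closest groups, so this test cannot decide about groups farther apart. The order of Dusp10 from the lowest was HFD-50%, HFD-25%, HFD-75%, NFD-C, HFD-C and HFD-U. For Dusp1 it was HFD-50%, HFD-25%, HFD-75%, HFD-U, NFD-C and HFD-C.

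Other genes of the pathway were taken from lists set by function, with earlier results of these data known, and are read against the 12.2% of all genes that passed the unadjusted limit and the 1.45% that passed by adjusted p in the 6-group test. Of 11 tested further dual-specificity phosphatases, 1 passed the unadjusted limit in the 6-group test: Dusp14 (adjusted p = 0.0990), at 9.34 ± 1.2 CPM in HFD-C and 4.85 to 5.94 CPM on average in the other groups (SD, n = 6). Of 10 tested MAP kinases and 10 effector kinases, 0 did, the smallest p-values being those of Mapk14, which encodes p38 alpha (0.0549), and Mapkapk3 (0.0925). Of 23 upstream kinases 3 did, led by Map3k8 (adjusted p = 0.0705), and of 10 tested ERK feedback inhibitors 1 did (Spred1, adjusted p = 0.392). Of 19 tested early response genes, 6 reached the unadjusted limit and 2 passed by adjusted p. Klf10, a zinc finger repressor, was at 40.2 ± 16.3 CPM in HFD-50% against 15.0 ± 4.71 in HFD-U and 19.8 ± 5.28 in HFD-C (6-group adjusted p = 0.00578, edgeR). In pairs, HFD-50% had an edgeR adjusted p of 0.0731 against HFD-U and 0.163 against HFD-C. Nr4a1, an orphan nuclear receptor induced by activity, was at 118 ± 30.1 CPM in HFD-50% against 219 ± 73.2 in HFD-U and 238 ± 54.8 in HFD-C (6-group adjusted p = 0.0349, edgeR). For Nr4a1 the edgeR adjusted p of HFD-50% was 0.205 against HFD-U and 0.108 against HFD-C.

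Some markers of other cell types passed the unadjusted limit in several comparisons, and none passed by adjusted p in any comparison of 2 groups. In the 6-group test, 1 of 8 endothelial genes passed by adjusted p, where 1.45% of all genes did. At the unadjusted limit of that test, 1 of 8 endothelial, 2 of 7 fibroblast and 1 of 8 macrophage and blood genes passed. It was 1 of 4 adipocyte and 0 of 5 Schwann cell genes, against 12.2% of all genes. Against HFD-C, the share of all genes at the unadjusted limit was 6.98% in HFD-25%, 10.7% in HFD-50% and 5.47% in HFD-75%. It was 5.46% in HFD-U and 4.12% in NFD-C. For HFD-50% it was 12.4% against HFD-U and 5.37% against HFD-75%. A single call in a list this short is not read as a change. Of 8 endothelial genes, 4 were higher in HFD-25%, 3 in HFD-50% and 1 in HFD-75% than in HFD-C, and 1 was higher in HFD-50% than in HFD-U. Their summed level was 178 to 313 CPM in HFD-C, 198 to 446 in HFD-50% and 156 to 348 in HFD-U. Of 7 fibroblast genes, 3 were lower in HFD-75%, 2 in HFD-25%, 1 in HFD-50% and 1 in HFD-U than in HFD-C, with sums of 357 to 621 CPM in HFD-C, 287 to 475 in HFD-75% and 206 to 558 in HFD-50%. Of the tested macrophage and blood genes, 3 of 7 were lower in HFD-75%, 2 of 7 in HFD-U and 1 of 8 in NFD-C than in HFD-C, and 1 of 8 was higher in HFD-50% than in HFD-75%, with sums of 186 to 429 CPM in HFD-C and 140 to 397 in HFD-75%. Of 4 tested adipocyte genes, 3 were lower in HFD-U and 1 in HFD-25% than in HFD-C, with sums of 2.73 to 89.7 CPM in HFD-C and 1.57 to 14.9 in HFD-U. Of 5 tested Schwann cell genes, 1 was lower in HFD-U than in HFD-C and 2 were higher in HFD-50% than in HFD-U, with sums of 68.3 to 131 CPM in HFD-50% and 35.0 to 81.4 in HFD-U. In HFD-50% against HFD-C, 0 macrophage and blood, adipocyte or Schwann cell genes passed. No marker was at 0 in every library, and the part of these cells in the phosphatase values was not tested.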

How the data were processed

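RNA of 1 gastrocnemius per mouse was sequenced as paired-end reads. The values used are the gene counts the authors deposited, raw and not normalized, for all 36 libraries. The submitters' processing notes name HISAT2 2.0.5, StringTie 1.3.3b, featureCounts 1.5.0-p3, DESeq2 1.20.0, edgeR 3.22.5 and build mm10. The chromosome versions in the deposited table are those of GRCm39, so gene coordinates are given as in the table and promoter coordinates, from RefSeq, in GRCm38.p6. The strand setting is not given in the sources used here. Dusp6, Dusp8, Dusp16 and Dusp18 are overlapped by opposite-strand features with mean counts of 8.7 or less.

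Counts were tested with the quasi-likelihood F-test of edgeR 4.0.16 (R 4.3.3) with TMM scaling, on genes averaging 25 counts or more in the fit, with Benjamini-Hochberg adjustment over all genes. CPM used TMM-scaled totals of all 36 libraries, and log2 CPM a prior count of 0.5. For pairs of groups, members with p of 0.05 or less before adjustment were counted, the study's limit for its counts of changed genes. For its most changed genes the study asked for an adjusted p of 0.05 or less and a minimum fold change. The 6-group and distance tests were counted by adjusted p of 0.05 or less. Alternatives were DESeq2 1.42.0, RLE scaling, no minimum count, the mouse number as a block, the ribosomal RNA-linked share as a covariate, libraries of like share, 1 fit over all libraries, exact permutation tests, leaving out each library, and leaving out the mice numbered 1. Low-share libraries alone in the 6-group test, and leaving out the mice numbered 1 in pairs of groups, were added after seeing the data. The fits were tested on simulated data. They recovered changes of the tested shape, while the distance test with edgeR recovered none of the changes placed in HFD-50% alone.

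Mouse numbers come from the labels. Deviations of same-numbered mice correlated above 0.1 in 6 of 6 pairs only for HFD-U against HFD-C (0.12 to 0.50). Mice of different numbers were not compared in this way, so these values do not show that the numbers pair mice. The block is an alternative fit in every comparison. Members and lists were chosen with earlier results of these data known. All members are named. Of each other list the 2 genes with the smallest p in the 6-group test were eligible to be named, and 4 of the early response genes, and likeness was listed for the 3 members with the smallest p. P-values measure the spread between mice, 1 library each.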

Additional observations from a re-analysis of the deposited data

Results flagged for a closer look

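A mouse stood apart from its own group, by a gap to its neighbour past Dixon's 95% critical value for 6 mice, in 10 of the 60 sets formed by 10 members and 6 groups. For independent sets of normally distributed values, chance would mark about 1 in 20. CPM was used here without a log scale and the sets share the same mice, so no excess over chance is read from this count. In HFD-C, replicate 6 was high for Dusp1 (205 CPM, next mouse 124) and for Dusp26 (116 CPM, next mouse 50.8), and replicate 4 was low for Dusp3 (83.9 CPM, next mouse 119). Mice numbered 1 were high for Dusp18 in NFD-C (54.9 CPM, next 13.6), in HFD-C (81.7 CPM, next 26.7) and in HFD-75% (66.8 CPM, next 25.0), and for Dusp8 in NFD-C (52.5 CPM, next 30.4). NFD-C replicate 4 was high for Dusp10 (44.8 CPM, next 32.4). For Dusp26, HFD-25% replicate 6 (45.6 CPM, next 25.0) and HFD-50% replicate 4 (108 CPM, next 32.5) were high.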

How the results depend on the processing

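Of 2142 values of single members under the alternatives, 1940 kept their direction and side of the limit, 63 lost a call, 43 gained one and 96 changed sign. Of these 96, 95 passed the limit in neither fit, and 1 did: Dusp26 in HFD-50% against HFD-U. The causes were not tested. Members called in the 6-group test went from 1 to 0 with the ribosomal RNA-linked share as a covariate, in libraries of low share and without the mice numbered 1. Members called in HFD-25% against HFD-C went from 2 to 0 without the mice numbered 1 and by exact permutation, and to 3 without a minimum count. With the covariate and in libraries of like share there were still 2, but Dusp26 stood in place of Dusp10. In HFD-75% against HFD-C called members went from 1 to 2 with DESeq2, without a minimum count, with the covariate and in libraries of like share, and to 0 by exact permutation. With the covariate and in libraries of like share, these 2 were Dusp1 and Dusp26, and Dusp10 was no longer called. In HFD-U against HFD-C called members went from 1 to 2 with the covariate and in libraries of like share, and to 0 with DESeq2, without the mice numbered 1 and by exact permutation. In NFD-C against HFD-C they went from 1 to 2 with the covariate and without the mice numbered 1. In HFD-50% against HFD-25% they went from 0 to 1 with the covariate. In HFD-50% against HFD-75% they went from 0 to 1 with DESeq2, without a minimum count, with the covariate, without the mice numbered 1 and in 1 fit over all libraries. In HFD-50% against HFD-U they went from 3 to 1 with the covariate, without the mice numbered 1 and in 1 fit over all libraries, and Dusp26 was no longer called by exact permutation (p = 0.182). In the distance test they went from 0 to 1 with DESeq2 and without a minimum count.

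With the mouse number as a replicate block, called members went from 1 to 2 in HFD-U against HFD-C and from 1 to 2 in NFD-C against HFD-C (with Dusp18). They went from 2 to 3 in HFD-25% against HFD-C (with Dusp26) and from 0 to 1 in HFD-50% against HFD-75%. In HFD-50% against HFD-U, Dusp3 stood in place of Dusp1. Same-numbered pairs correlated above 0.1 in 6 of 6 cases for HFD-U against HFD-C, and in 1 to 5 of 6 for the remaining pairs of groups. Mice of different numbers were not compared in this way, so the numbers were not taken to pair the mice. The pair numbered 1 correlated in all 8 comparisons (r 0.31 to 0.59), and what those mice share is not given in the sources used here.

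With the ribosomal RNA-linked share as a covariate, log2 fold changes turned in HFD-25% against HFD-C for Dusp8 (0.035), Dusp16 (0.21) and Dusp18 (0.68), in HFD-50% against HFD-C for Dusp8 (0.053) and Dusp18 (0.74), in HFD-75% against HFD-C for Dusp6 (0.13), Dusp8 (0.17) and Dusp18 (1.06), in HFD-U against HFD-C for Dusp8 (0.047), Dusp16 (0.13) and Dusp18 (0.87), in HFD-50% against HFD-25% for Dusp6 (0.034) and Dusp26 (-0.055), in HFD-50% against HFD-75% for Dusp7 (0.022) and Dusp26 (-0.11) and in HFD-50% against HFD-U for Dusp3 (0.050), Dusp6 (0.14) and Dusp26 (-0.17). In libraries of like share they turned in HFD-25% against HFD-C for Dusp8 (0.0023), Dusp16 (0.20) and Dusp18 (0.51), in HFD-50% against HFD-C for Dusp8 (0.061) and Dusp18 (0.78), in HFD-75% against HFD-C for Dusp6 (0.13), Dusp8 (0.13) and Dusp18 (0.86), in HFD-U against HFD-C for Dusp16 (0.12) and Dusp18 (0.58) and in NFD-C against HFD-C for Dusp1 (0.056). Without the mice numbered 1 they turned in HFD-25% against HFD-C for Dusp16 (0.077), in HFD-50% against HFD-C for Dusp18 (0.28), in HFD-75% against HFD-C for Dusp8 (0.037), in HFD-U against HFD-C for Dusp6 (-0.044) and Dusp16 (0.0096), in HFD-50% against HFD-25% for Dusp8 (-0.023) and Dusp16 (-0.0094), in HFD-50% against HFD-75% for Dusp18 (0.36) and in HFD-50% against HFD-U for Dusp8 (-0.021). As differences of mean log2 CPM, the measure of the exact permutation test, they turned in HFD-25% against HFD-C for Dusp16 (0.010) and in HFD-50% against HFD-75% for Dusp18 (0.051). With the mouse number as a block they turned in HFD-25% against HFD-C for Dusp16 (0.0082) and in HFD-50% against HFD-75% for Dusp18 (0.078). Without a minimum count the sign turned in HFD-25% against HFD-C for Dusp16 (0.0028). With 1 library left out at a time, 53 of the values changed sign, among the members whose lowest and highest values follow. In HFD-25% against HFD-C the range was -0.13 to 0.12 for Dusp6, -0.18 to 0.029 for Dusp7, -0.090 to 0.081 for Dusp16 and -0.90 to 0.18 for Dusp18. In HFD-50% against HFD-C the range was -0.021 to 0.15 for Dusp16, -0.43 to 0.45 for Dusp18 and -0.73 to 0.45 for Dusp26. In HFD-75% against HFD-C the range was -0.17 to 0.073 for Dusp6, -0.21 to 0.063 for Dusp8 and -0.77 to 0.53 for Dusp18. In HFD-U against HFD-C the range was -0.052 to 0.17 for Dusp6, -0.19 to 0.027 for Dusp7, -0.030 to 0.28 for Dusp10, -0.15 to 0.011 for Dusp16 and -0.71 to 0.25 for Dusp18. In NFD-C against HFD-C the range was -0.43 to 0.018 for Dusp1, -0.0079 to 0.10 for Dusp3 and -0.23 to 0.19 for Dusp8. In HFD-50% against HFD-25% the range was -0.093 to 0.17 for Dusp8 and -0.016 to 0.15 for Dusp16. In HFD-50% against HFD-75% the range was -0.26 to 0.030 for Dusp6, -0.23 to 0.025 for Dusp8, -0.14 to 0.013 for Dusp16, -0.25 to 0.52 for Dusp18 and -0.16 to 0.60 for Dusp26. In HFD-50% against HFD-U the range was -0.093 to 0.20 for Dusp8.

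Leaving out 1 library at a time gave 0 to 1 called members in the 6-group test, 0 to 3 in HFD-25%, 3 in every case in HFD-50%, 0 to 2 in HFD-75%, 0 to 1 in HFD-U and 0 to 2 in NFD-C against HFD-C, 0 to 1 in HFD-50% against HFD-25% and against HFD-75%, 1 to 3 against HFD-U and 0 in every case in the distance test. With 6 mice a group, no exact p can go below 0.00216, and Dusp4 had too few counts to compare.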
